A study of Mus musculus with 30 samples.

Results

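Over the gastrocnemius, diaphragm, heart and liver pooled, the RNA of 374 genes differed between Mtm1-/y and WT mice, with the same sign in each tissue. They were found by fitting all 30 libraries at once, with the tissue as a block and a single genotype term (Mtm1-/y against WT), by edgeR's quasi-likelihood test, with p adjusted by Benjamini-Hochberg over all 18498 genes in the fit. Calls needed an adjusted p under 0.05, and a called gene was kept where it was measured in each of the 4 tissues, as 12610 genes were, and where its log2 fold change had the same sign in all of them. The term called 711 genes, or 3.84% of those tested, of which 383 were higher (2.07%) and 328 lower (1.77%) in Mtm1-/y. Of the 477 called genes that were measured in every tissue (3.78% of the 12610), 103 differed in sign between tissues and 374 did not, and the latter made up 2.97% of the genes measured in every tissue. Of these 374, 203 were higher and 171 lower in Mtm1-/y, and 361 were protein-coding. Having the same sign in 4 tissues, whatever the p, was met by 17.5% of the genes measured in every tissue.

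The mice were males on the 129Pas background at 5 weeks of age. Mtm1-/y mice (Mtm1KO in the labels) carry a constitutive knockout of the X-linked gene Mtm1, present in every cell type, and the WT mice were littermates. RNA was sequenced from 4 WT and 4 Mtm1-/y gastrocnemius libraries, 4 WT and 3 Mtm1-/y diaphragm libraries, 4 WT and 4 Mtm1-/y heart libraries, and 3 WT and 4 Mtm1-/y liver libraries. The labels do not say whether libraries of different tissues that bear the same number came from 1 mouse. The p-values treat libraries of different tissues as independent, which those of 1 mouse would not be. The authors count as many mice as libraries in each group, so the p-values measure the spread between libraries of different mice within a tissue. For the shared term, that spread also includes differences of the genotype effect between tissues. Myotubularin, the product of Mtm1, is a lipid phosphatase that removes a phosphate from phosphoinositides of endosomal membranes, and its loss causes X-linked myotubular myopathy, a centronuclear myopathy. The disease is known mainly from skeletal muscle, while heart and liver express Mtm1 too. A single genotype term tests a difference pooled over these tissues and does not require one in each of them. For the genes kept, only the sign was required in each tissue, not a difference that passed a test there. In bulk RNA, fewer cells of a type and less RNA per cell cannot be told apart.

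Each library held 24873817 to 44289343 counts over 36103 genes. Levels are in CPM, read counts scaled by TMM to a common library size. Marker genes matched the labelled tissues, except that albumin (Alb), a hepatocyte gene, reached 284 to 31900 CPM in the diaphragm against 0.937 to 100 CPM in the heart and 90600 to 126000 CPM in the liver. These albumin levels are without TMM. WT diaphragm libraries 1, 2 and 4 and Mtm1-/y diaphragm library 2 were the 4 highest in albumin. In the gastrocnemius, the summed level of 19 skeletal muscle fibre markers was 304000 to 363000 CPM in WT and 194000 to 217000 CPM in Mtm1-/y, and that of 19 macrophage markers 67.9 to 119 CPM in WT and 206 to 251 CPM in Mtm1-/y, without overlap. The summed macrophage level overlapped between genotypes in the other 3 tissues, at 371 to 858 against 435 to 958 CPM in diaphragm, 398 to 539 against 399 to 459 CPM in heart and 457 to 510 against 119 to 487 CPM in liver. Of single genes measured in every tissue, 31.3% did not overlap in gastrocnemius, 9.42% in diaphragm, 4.18% in heart and 5.57% in liver. Of 56 sums (14 marker lists in 4 tissues), 12 did not overlap. They included MHC class II genes, higher in Mtm1-/y gastrocnemius (183 to 282 against 40.5 to 53.3 CPM) and diaphragm (350 to 550 against 143 to 300 CPM) and lower in the liver (47.5 to 173 against 190 to 316 CPM). Endothelial markers were lower in both skeletal muscles (715 to 911 against 987 to 1220 CPM and 1040 to 1140 against 1210 to 1400 CPM). B cell markers were lower in the liver (27.2 to 107 against 110 to 166 CPM), and erythroid and smooth muscle markers in the gastrocnemius. Summed white adipocyte markers were lower in the diaphragm and liver. The liver held only 0 to 1.86 CPM (without TMM) of the adipocyte gene Adipoq, so its sum rests on other genes of the list. The median log2 fold change of that list in the liver was 0.48. In the heart 0 sums were without overlap. The part of these marker levels in the results was not tested.

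Most shared differences were small. The median size of the shared log2 fold change over the 374 genes was 0.35, and 16 genes exceeded 1, of which 10 were higher and 6 lower in Mtm1-/y, against 165 of all genes tested (0.892%). The tissue with the largest difference was the gastrocnemius for 215 genes, the diaphragm for 96, the liver for 48 and the heart for 15. The median size over the 374 on the log2 scale was 0.49, 0.39, 0.17 and 0.22 in gastrocnemius, diaphragm, heart and liver, and over all genes measured in every tissue it was 0.23, 0.15, 0.12 and 0.13. The 2 genotypes did not overlap for 259 of the 374 in gastrocnemius (31.3% of all measured genes), 151 in diaphragm (9.42%), 48 in heart (4.18%) and 67 in liver (5.57%). These counts come from the libraries that chose the genes and are given as a description. The most common patterns were a lack of overlap in the gastrocnemius alone (114 genes) and in both skeletal muscles (92 genes), while 33 genes overlapped in every tissue. Only Mtm1, Arrdc2 and Hif3a were without overlap in all 4 tissues. No other measured gene was so in the direction of the shared term, so these 3 make up the whole share of 0.0238%. Another 13 genes were so in 3 tissues (0.254% of the measured genes had at least 3), and 10 were so in the heart and the liver together (0.206%).

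The shared term was refitted without each tissue in turn, which also changes the number of libraries and the genes tested. Without the gastrocnemius, 10 genes were called (0.0557% of those tested) and 5 of the 374 were among them. Without the diaphragm 134 were called (0.743%), with 50 of the 374, without the heart 1354 (7.53%), with 309, and without the liver 1197 (6.63%), with 298. Mtm1, Arrdc2, Hif3a and Setdb2 were among the 5 genes called whichever tissue was left out, and these 4 were lower in Mtm1-/y. Each of the 4 was also called without each of the 30 libraries in turn and under the 11 other settings that kept every tissue. The threshold of a log2 fold change over 1, which Setdb2 did not reach, is not among the 11.

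**Figure D1:**
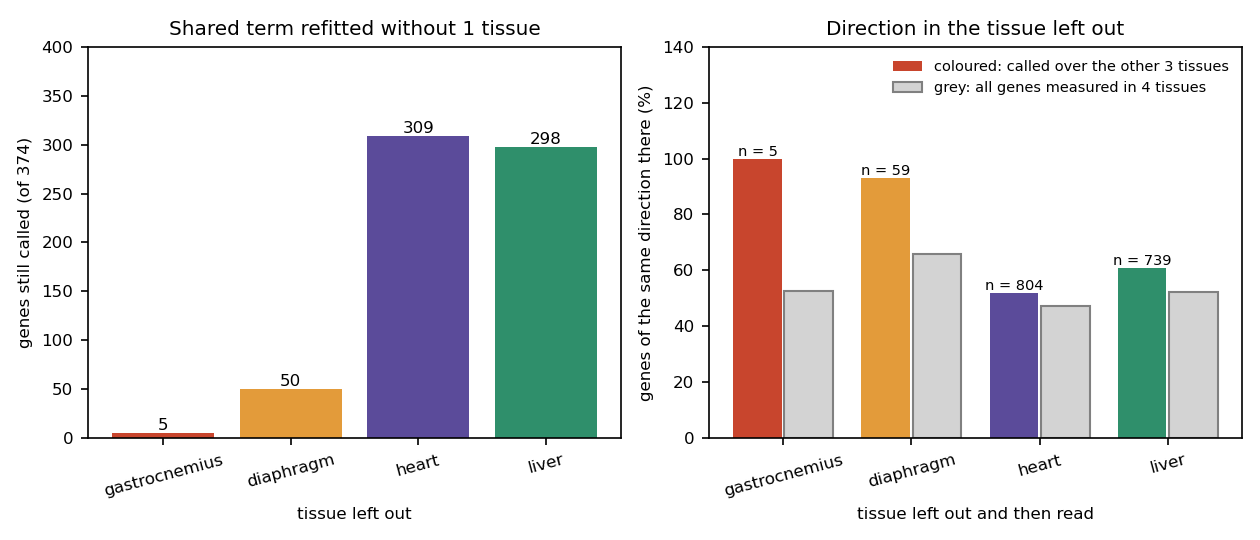
The left panel counts how many of the 374 genes were still called when 1 tissue was left out of the shared fit, which was 5 without the gastrocnemius, 50 without the diaphragm, 309 without the heart and 298 without the liver. The right panel gives the percent of the genes called over 3 tissues that had the same direction in the tissue left out (coloured bars, n above them) beside the same percent for all genes measured in 4 tissues (grey bars), and only the gastrocnemius and diaphragm pairs of bars stand far apart.

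The tissue left out was then read for the genes called over the other 3, with their direction there set beside that of all 12610 measured genes. Its libraries had no part in the choice, although they may come from the same mice. All 5 genes called without the gastrocnemius, the knocked-out gene among them, were lower and had the same direction in it, against 52.5% of all measured genes, and 3 of them did not overlap, against 17.2%. Of 59 genes called over gastrocnemius, heart and liver with a shared sign, 55 had the same direction in the diaphragm, or 93.2% against 65.7% of all measured genes, and 17 did not overlap, or 28.8% against 7.75%. In the heart the share was lower: of 804 genes called over the other tissues, 416 had the same direction in the heart, 51.7% against 47.3%, and 31 did not overlap (3.86% against 1.94%), while 9 did not overlap in the opposite direction. In the liver 451 of 739 genes had the same direction, 61% against 52.2%, and 30 did not overlap (4.06% against 3.4%), with 15 in the opposite direction.

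The knocked-out gene came first by p. Mtm1 (X:71210767-71315691, mm10) had 20.9, 20.9, 22.3 and 20.8 CPM in the 4 WT gastrocnemius libraries and 4.31, 5.29, 4.74 and 5.76 CPM in Mtm1-/y. In the diaphragm it had 17.7, 19, 24.4 and 16.1 CPM in WT and 4.2, 3.68 and 4.05 CPM in Mtm1-/y, and in the heart 21.1, 22.6, 26.9 and 21.3 CPM against 3.94, 4.11, 3.49 and 3.84 CPM. In the liver it had 15.9, 24.0 and 19 CPM in WT and 6.72, 8.19, 4.41 and 6.74 CPM in Mtm1-/y. Every Mtm1-/y library lay below every WT library of its tissue, and reads on the gene remained in all of them. Its shared log2 fold change was -2.15 (SE 0.10, adjusted p = 4.03e-14), with -2.08, -2.28, -2.58 and -1.59 in the gastrocnemius, diaphragm, heart and liver, and the 4 differed (interaction adjusted p = 0.0384). An interaction of tissue and genotype was called for 971 genes (5.25% of those tested) and for 44 of the 374. Within 1 megabase of Mtm1, 12 other genes were tested and 0 were called by edgeR, 1 had an unadjusted p under 0.05, and DESeq2 called 0 of them and limma voom with sample weights 1.

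Arrdc2 followed. It encodes an arrestin domain protein of the alpha-arrestin family, adaptors that link membrane proteins to ubiquitin ligases. Arrdc2 (8:70835129-70839720) had 114, 132, 169 and 207 CPM in WT gastrocnemius and 48.4, 53, 91.6 and 33.1 CPM in Mtm1-/y gastrocnemius. Its diaphragm levels were 65.7, 58.4, 106 and 88.6 CPM in WT and 16.7, 40.9 and 27.1 CPM in Mtm1-/y. The heart held less of it, with 21.1, 19.4, 23.2 and 33.4 CPM against 8.26, 12.3, 8.58 and 11.9 CPM. None of these groups overlapped, and neither did the liver, where WT libraries had 75.7, 155 and 86.5 CPM and Mtm1-/y libraries 22.5, 28.8, 42.5 and 36.8 CPM. The shared log2 fold change was -1.47 (SE 0.16, adjusted p = 3.16e-06), with -1.46, -1.50, -1.24 and -1.69 in the 4 tissues, and no difference between tissues passed the test (interaction adjusted p = 0.913). Its adjusted p was 0.000446 without the gastrocnemius, 7.55e-05 without the diaphragm, 0.000149 without the heart and 0.000136 without the liver. Of the other 4 alpha-arrestins tested, 0 were called by edgeR, DESeq2 or limma voom and 0 had an unadjusted p under 0.05 in edgeR, with shared log2 fold changes of -0.05 for Arrdc1, -0.11 for Txnip, 0.05 for Arrdc4 and 0.14 for Arrdc3.

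Hif3a encodes a subunit of the hypoxia-inducible factors that has been described as a restraint on the other family members and as a target of glucocorticoids. Hif3a (7:17031507-17062427) lay below all WT libraries in each Mtm1-/y library of the same tissue. The gastrocnemius had 9.76, 6.04, 8.76 and 9.94 CPM in WT and 1.9, 1.74, 3.51 and 5.15 CPM in Mtm1-/y, and the diaphragm 5.02, 3.2, 7.0 and 5.44 CPM in WT and 1.63, 2.61 and 3.07 CPM in Mtm1-/y. The heart held its highest levels, 12.9, 9.51, 12.4 and 13.3 CPM in WT and 8.19, 5.6, 4.88 and 6.16 CPM in Mtm1-/y. Liver levels were low, at 1.04, 1.56 and 1.99 CPM in WT and 0.884, 0.648, 0.636 and 0.381 CPM in Mtm1-/y. Its shared log2 fold change was -1.19 (SE 0.16, adjusted p = 6.24e-05), and the tissue values of -1.49, -1.09, -0.95 and -1.26 did not differ by the test (interaction adjusted p = 0.819). With 1 tissue left out its adjusted p lay between 0.000852 (diaphragm) and 0.00908 (gastrocnemius). Of 17 hypoxia-responsive genes 1 was called, against 3.84% of all genes tested. It was Egln3, a prolyl hydroxylase of the pathway, which was higher (0.48, adjusted p = 0.036) and lost its call without any 1 of 11 libraries (adjusted p 0.0507 to 0.0679) and with the replicate number as a block (0.0532). The 11 were WT gastrocnemius 1 to 4, Mtm1-/y gastrocnemius 1 to 3, WT diaphragm 1, Mtm1-/y heart 1 and 4 and WT liver 3.

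Setdb2 encodes a SET domain protein of the histone lysine methyltransferase family. Its fall differed in size between tissues (14:59402009-59440884). In the gastrocnemius the groups overlapped, with 5.23, 4.72, 5.9 and 5.11 CPM in WT and 4.62, 4.56, 5.7 and 4.16 CPM in Mtm1-/y, as they did in the diaphragm, with 8.77, 8.03, 4.83 and 10.0 CPM in WT and 5.07, 5.71 and 4.72 CPM in Mtm1-/y. In the heart they did not, at 10.1, 11.7, 14.5 and 11.1 CPM against 7.86, 6.47, 5.43 and 9.39 CPM, and the liver had 26.8, 51.2 and 52.2 CPM in WT and 12.6, 18.6, 14.2 and 15.1 CPM in Mtm1-/y. The shared log2 fold change was -0.74 (SE 0.14, adjusted p = 0.00401), and the tissue values of -0.14, -0.62, -0.70 and -1.52 differed (interaction adjusted p = 0.0353). Its adjusted p was 0.0212 without the gastrocnemius, 0.0272 without the diaphragm, 0.0155 without the heart and 0.02 without the liver. The 4 diaphragm libraries highest in Setdb2 were the 4 highest in albumin, WT 1, 2 and 4 and Mtm1-/y 2. The part of this in the diaphragm value of Setdb2 was not tested. The only other called gene among 13 tested within 1 megabase of Setdb2 was its neighbour Phf11c (14:59380833-59395381), a PHD finger gene. Cab39l, whose annotated start lies 87 bases from that of Setdb2, had a shared log2 fold change of -0.20 that did not pass the test (adjusted p = 0.0809).

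Among genes averaging 1 CPM or more in every tissue, Phf11c was the third largest fall, at -1.27 (SE 0.25, adjusted p = 0.00501), with -0.47, -1.77, -0.38 and -2.34 in the 4 tissues (interaction adjusted p = 0.0416). The liver led, with 24.3, 55.3 and 56.0 CPM in WT and 7.47, 12.4, 7.89 and 8.01 CPM in Mtm1-/y. The diaphragm had 5.84, 5.51, 1.34 and 7.59 CPM in WT and 1.1, 2.53 and 0.944 CPM in Mtm1-/y, and the 4 libraries highest in Phf11c there were the 4 highest in albumin. Heart levels were 1.77, 2.2, 2.31 and 1.71 CPM in WT and 1.77, 1.42, 1.45 and 1.48 CPM in Mtm1-/y. Without those 4 diaphragm libraries, a choice made after the data were seen, Phf11c kept -1.04, Setdb2 -0.69 and Mtm1 -2.15. Other named genes lost their call there, among them Tnc, Cpne2, Igf2bp2, Svep1, Kif11, Kif4, Map3k6, Mtmr10 and Car3. Tnc had 1.15 in that fit and Cpne2 1.18. The fit left WT diaphragm library 3 as the only one of its group.

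**Figure D2:**
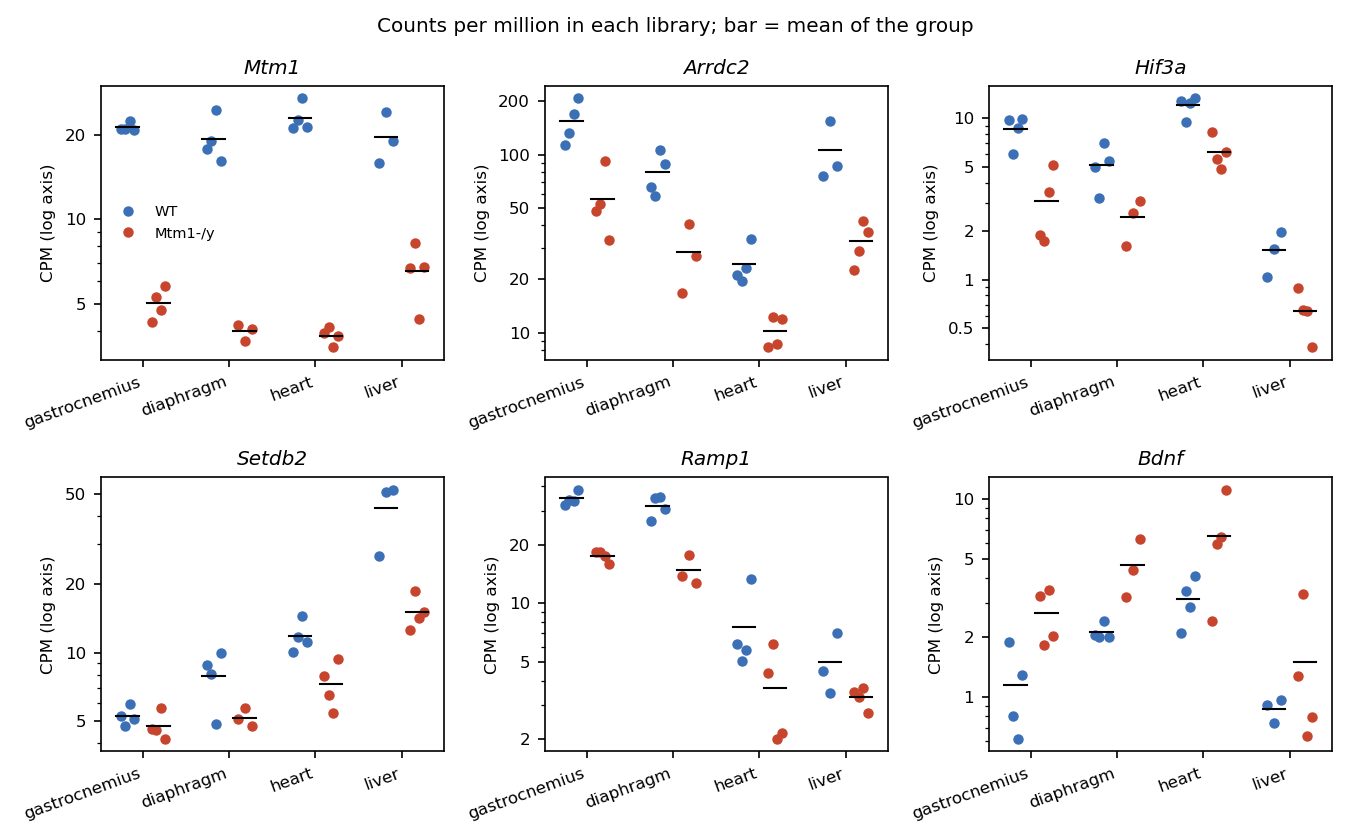
Each point is 1 library's level in CPM on a log axis, in blue for WT and in red for Mtm1-/y, with a bar at the mean of its group, for Mtm1, Arrdc2, Hif3a, Setdb2, Ramp1 and Bdnf. Mtm1, Arrdc2 and Hif3a do not overlap in any tissue, Setdb2 overlaps in the gastrocnemius and diaphragm, Ramp1 in the heart and liver, and Bdnf does not overlap in the diaphragm only.

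The promoters of the genes that fell are shown for what they hold and lack. Each covers 250 bases before and 50 bases after the start of a RefSeq transcript on GRCm38.p6, 5′ to 3′ on the gene's strand, in lower case, with motif matches in capitals. Arrdc2 and Hif3a are shown because they fell without overlap in every tissue. The other promoters are those of the 4 falling genes that held a glucocorticoid response element, an inverted repeat bound by the glucocorticoid receptor, and that of Klf15, a glucocorticoid-responsive gene, which held 3 E-boxes.
Arrdc2, chr8:70839671-70839970, minus strand: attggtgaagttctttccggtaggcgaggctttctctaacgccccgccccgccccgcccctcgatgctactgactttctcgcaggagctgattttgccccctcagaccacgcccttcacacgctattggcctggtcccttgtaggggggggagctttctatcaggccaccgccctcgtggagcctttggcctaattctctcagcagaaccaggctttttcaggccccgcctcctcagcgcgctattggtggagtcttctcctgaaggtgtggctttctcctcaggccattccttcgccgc
Hif3a, chr7:17062378-17062677, minus strand: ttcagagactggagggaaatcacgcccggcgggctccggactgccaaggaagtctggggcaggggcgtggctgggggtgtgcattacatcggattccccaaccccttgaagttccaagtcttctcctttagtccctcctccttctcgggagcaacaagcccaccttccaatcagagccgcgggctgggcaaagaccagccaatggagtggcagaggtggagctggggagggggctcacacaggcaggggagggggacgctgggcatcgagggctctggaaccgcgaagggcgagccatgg
Map3k6, chr4:133240568-133240867, plus strand: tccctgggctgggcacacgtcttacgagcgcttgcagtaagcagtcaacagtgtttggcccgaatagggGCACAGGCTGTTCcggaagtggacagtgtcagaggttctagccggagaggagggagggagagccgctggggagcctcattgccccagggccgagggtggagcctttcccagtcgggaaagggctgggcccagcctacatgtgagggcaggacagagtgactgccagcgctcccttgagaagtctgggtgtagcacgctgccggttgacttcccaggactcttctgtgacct
Fam107a, chr14:8309730-8310029, minus strand: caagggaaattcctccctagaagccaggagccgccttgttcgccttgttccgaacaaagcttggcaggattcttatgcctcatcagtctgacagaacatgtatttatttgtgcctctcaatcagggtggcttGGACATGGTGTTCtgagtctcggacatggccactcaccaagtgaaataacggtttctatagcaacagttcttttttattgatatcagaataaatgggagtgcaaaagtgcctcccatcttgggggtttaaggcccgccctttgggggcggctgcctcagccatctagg
Slc10a6, chr5:103629354-103629653, minus strand: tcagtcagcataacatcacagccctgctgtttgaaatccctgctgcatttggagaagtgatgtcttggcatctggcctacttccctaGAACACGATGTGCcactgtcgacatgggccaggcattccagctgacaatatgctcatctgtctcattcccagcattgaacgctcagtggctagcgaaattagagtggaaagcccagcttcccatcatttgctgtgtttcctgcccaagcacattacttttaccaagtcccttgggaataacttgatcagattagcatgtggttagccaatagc
Tinagl1, chr4:130174753-130175052, minus strand: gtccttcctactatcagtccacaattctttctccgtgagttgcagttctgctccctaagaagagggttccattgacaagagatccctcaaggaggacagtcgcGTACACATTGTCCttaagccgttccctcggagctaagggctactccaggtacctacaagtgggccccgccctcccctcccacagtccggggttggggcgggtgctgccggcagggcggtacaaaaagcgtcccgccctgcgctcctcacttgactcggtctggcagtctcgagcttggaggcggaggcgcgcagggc
Klf15, chr6:90462326-90462625, plus strand: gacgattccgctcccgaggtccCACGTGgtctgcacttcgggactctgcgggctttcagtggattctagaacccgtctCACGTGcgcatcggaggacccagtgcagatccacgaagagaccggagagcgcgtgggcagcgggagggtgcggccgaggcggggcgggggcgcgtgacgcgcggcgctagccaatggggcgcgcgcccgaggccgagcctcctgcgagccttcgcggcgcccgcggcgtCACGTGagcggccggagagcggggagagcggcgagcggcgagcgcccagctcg

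The motifs searched on both strands were 5: the glucocorticoid response element, the E-box (CACGTG), the CRE (TGACGTCA), the FoxO site (GTAAACA) and the heat shock element (GAANNTTC). The window of Arrdc2 and that of Hif3a held none of them, nor did those of Mtm1 and Setdb2. The glucocorticoid response element began at position -181 from the start in Map3k6, -118 in Fam107a, -163 in Slc10a6 and -147 in Tinagl1, and the E-boxes of Klf15 began at -228, -172 and -3. The Fam107a window belongs to a transcript that starts 8244 bases from the annotated start of the gene, and the Tinagl1 window to one that starts 320 bases away. The glucocorticoid response element was in the promoter of 4 of the 135 lower genes with a promoter in the table (2.96%), of 0 of the 162 higher genes and of 37 of 9597 measured genes (0.386%). E-boxes were in 7.41% of the lower and 11.7% of the higher genes against 11.9% of the measured genes, CREs in 5.19% and 2.47% against 3.61%, FoxO sites in 3.7% and 2.47% against 3.01%, and heat shock elements in 4.44% and 9.26% against 6.89%. These shares rest on few genes and are descriptions, since a match is not a bound site. Map3k6, a stress-activated kinase, fell by 0.77 on the log2 scale (adjusted p = 0.0303), though its call was lost without any 1 of 4 libraries (WT gastrocnemius 4, Mtm1-/y gastrocnemius 1, and Mtm1-/y diaphragm 1 and 4, adjusted p 0.053 to 0.0596). The other 3 were named for their motif after it was seen: Fam107a fell by 0.81 (adjusted p = 0.0075), Slc10a6 by 0.54 (adjusted p = 0.0268) and Tinagl1 by 0.50 (adjusted p = 0.00814).

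Glucocorticoid-responsive genes, a list of 25, were lower in more tissues than measured genes in general. By the shared term 3 of the 25 fell, namely Nfkbia, Klf15 and Tsc22d3, and 0 rose. Over all genes tested 1.77% fell and 2.07% rose. DESeq2 called 4 of the list and limma voom with sample weights 7. The median shared log2 fold change of the list was -0.27 against -0.01 over all genes tested. Of the 25 genes, 9 were lower in all 4 tissues (36%, against 7.97% of measured genes) and 0 were higher in all 4 (9.53%). The list leaned lower most in the heart and liver, with 22 and 21 of 25 genes lower and medians of -0.40 and -0.44, against 15 and 19 genes and medians of -0.16 and -0.14 in the gastrocnemius and diaphragm.

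Tsc22d3 encodes GILZ, a glucocorticoid-induced leucine zipper protein, and its shared log2 fold change was -0.39 (SE 0.09, adjusted p = 0.0144), with -0.32, -0.41, -0.39 and -0.45 in the 4 tissues. It ranged from 237 to 265 CPM in WT and 177 to 204 CPM in Mtm1-/y diaphragm, and from 155 to 188 against 117 to 145 CPM in the heart, while the groups overlapped in the gastrocnemius (261 to 389 against 240 to 295 CPM) and liver (365 to 403 against 146 to 393 CPM). Klf15, a transcription factor of amino acid and glucose metabolism, was at -0.60 (SE 0.13, adjusted p = 0.0114), with 293 to 343 CPM in WT liver and 173 to 217 CPM in Mtm1-/y liver. Its groups overlapped in the other 3 tissues, where its log2 fold changes were -0.39, -0.67 and -0.68. Nfkbia, which encodes the inhibitor that holds NF-kB in the cytoplasm and is itself an NF-kB target, was at -0.33 (SE 0.06, adjusted p = 0.0046), with 45.2 to 53.8 against 30.6 to 42.0 CPM in the gastrocnemius and 65.4 to 76.4 against 45.5 to 62.8 CPM in the liver, both without overlap. All 3 kept their call without each single library. All 3 lost it without the gastrocnemius, where the adjusted p was 0.213 for Klf15, 0.218 for Nfkbia and 0.246 for Tsc22d3. Tsc22d3 also lost it without the diaphragm (0.113) and without the heart (0.0519). Another 6 members that did not pass were also lower in all 4 tissues. Ddit4, which encodes an inhibitor of mTORC1, had a shared log2 fold change of -0.84 (adjusted p = 0.057), Bcl6 -0.57 (0.087), Fkbp5, a glucocorticoid receptor co-chaperone, -0.73 (0.103), the clock gene Per1 -0.27 (0.145), Tat -1.08 (0.216) and Zbtb16 -0.49 (0.327).

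Respiratory chain subunits encoded in the nucleus split by tissue, yet 8 of 74 fell by the shared term and 0 rose. Over all genes tested 1.77% fell and 2.07% rose. Of the 8, 7 belong to complex I, the NADH dehydrogenase (Ndufc2, Ndufb6, Ndufb11, Ndufb2, Ndufa13, Ndufs7 and Ndufb8), and the other, Uqcr10, to complex III. Each was lower in all 4 tissues, as were 18 of the 74 (24.3%, against 7.97% of measured genes). Ndufc2 had the smallest p, at -0.23 (SE 0.05, adjusted p = 0.00707), with 99.8 to 112 CPM in WT and 77.4 to 87.9 CPM in Mtm1-/y gastrocnemius, 82.4 to 99.7 and 69 to 90.1 CPM in diaphragm, 77.9 to 84.8 and 63.7 to 81.2 CPM in heart, and 49.1 to 66.9 and 45.8 to 49.7 CPM in liver. Its groups overlapped outside the gastrocnemius. Ndufc2 alone of the 8 kept its call without each single library. Ndufb11 (-0.22, adjusted p = 0.0303) lost it without any 1 of 3 libraries (WT gastrocnemius 4, Mtm1-/y gastrocnemius 3 and WT liver 3, up to an adjusted p of 0.062) and Ndufb6 without any 1 of 4 (the same 3 and WT gastrocnemius 3, up to 0.0596). The others lost it without any 1 of 9 (Ndufb2), 11 (Ndufs7), 12 (Ndufa13), 20 (Uqcr10) or 24 libraries (Ndufb8), up to 0.0954. With no filter on low counts Ndufb6 (0.0974) and Ndufb11 (0.0993) also lost it. The list as a whole was lower in the muscles, with 71 of 74 genes lower in the gastrocnemius (median -0.28) and 72 in the diaphragm (median -0.20), but 53 of 74 were higher in the heart (median 0.13), and 47 were lower in the liver (median -0.06).

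The tricarboxylic acid cycle is the plainest case of a list that the shared term does not describe. All 22 genes were lower in the gastrocnemius (median -0.44) and in the diaphragm (median -0.20), while all 22 were higher in the heart (median 0.21) and 20 were higher in the liver (median 0.09). By the shared term 0 were called by edgeR, DESeq2 or limma voom, 2 had an unadjusted p under 0.05 in edgeR, and 0 had the same sign in all 4 tissues.

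Mitotic and DNA replication genes leaned higher in all tissues. Of 34 tested, 21 were higher in all 4 tissues (61.8%, against 9.53% of measured genes) and 0 were lower in all 4. The list had median log2 fold changes of 0.82, 0.91, 0.41 and 0.40 in gastrocnemius, diaphragm, heart and liver, with 30, 31, 29 and 30 of 34 genes higher, and its shared median was 0.57. By edgeR's test 2 of the 34 rose (2.07% of all genes tested did), while DESeq2 called 7 and limma voom with sample weights 1, and 24 had an unadjusted p under 0.05. Kif11, the kinesin motor that pushes spindle poles apart, rose by 0.83 (SE 0.22, adjusted p = 0.0298), and Pcna, the sliding clamp of DNA polymerases, by 0.21 (SE 0.06, adjusted p = 0.0306). Kif11 had 1.72 to 3.42 CPM in WT and 3.35 to 6.42 CPM in Mtm1-/y gastrocnemius and 1.26 to 3.52 against 2.64 to 7.61 CPM in the diaphragm. In the heart it had 5.29, 1.38, 1.73 and 3.52 CPM in Mtm1-/y around WT levels of 1.87 to 2.44 CPM, and in the liver 5.22, 4.12, 3.56 and 1.4 CPM around 1.69 to 3.67 CPM. The groups overlapped in every tissue, and the heart value of 0.47 was 0.04 without Mtm1-/y heart library 1. Kif11 lost its call without any 1 of 6 libraries (WT gastrocnemius 3 and 4, Mtm1-/y gastrocnemius 3, Mtm1-/y diaphragm 1 and 4 and Mtm1-/y heart 1, adjusted p 0.0504 to 0.0619), and Pcna without any 1 of 5 (WT gastrocnemius 1 to 4 and Mtm1-/y diaphragm 1, up to 0.0692). Kif4, a chromosome-associated kinesin outside the list, rose by 0.82 (adjusted p = 0.0491) and lost its call without any 1 of 21 libraries. The liver value of Kif4, 0.40, was -0.06 without Mtm1-/y liver library 1. Members that did not pass had values such as 0.93 for Mki67 (adjusted p = 0.101), 0.87 for Cdk1 (0.069) and 0.82 for Top2a (0.123).

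**Figure D3:**
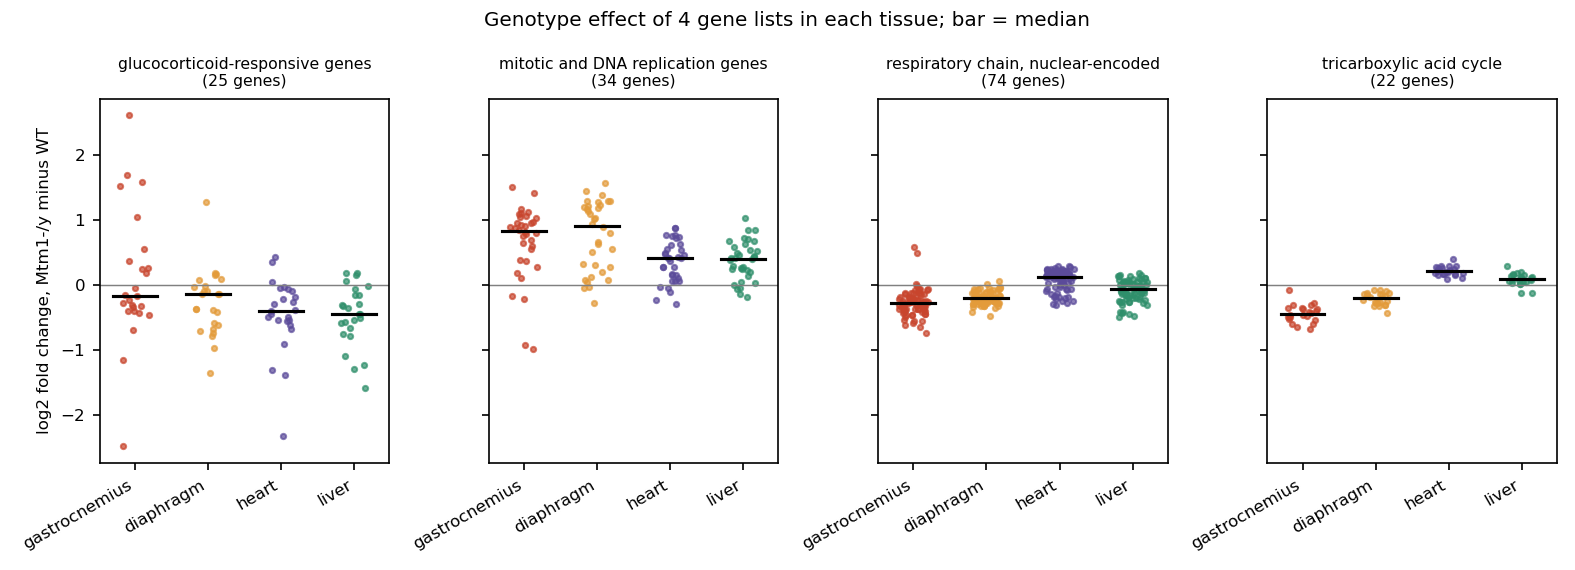
Each point is the log2 fold change (Mtm1-/y minus WT) of 1 gene in 1 tissue, for 4 gene lists, with a bar at the median. Mitotic and DNA replication genes have medians of 0.82, 0.91, 0.41 and 0.40 in the gastrocnemius, diaphragm, heart and liver, while the tricarboxylic acid cycle changes sign between the skeletal muscles and the heart.

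Bdnf was among the 12 largest rises. It encodes brain-derived neurotrophic factor, a secreted ligand of the TrkB receptor. Bdnf had 1.9, 0.8, 0.616 and 1.3 CPM in WT and 3.22, 1.84, 3.48 and 2.04 CPM in Mtm1-/y gastrocnemius. Diaphragm libraries had 2.06, 2.02, 2.43 and 2.0 CPM against 3.21, 4.39 and 6.26 CPM. Heart levels were 2.11, 3.42, 2.84 and 4.07 CPM in WT and 2.42, 5.93, 6.43 and 11.1 CPM in Mtm1-/y. Liver levels were 0.91, 0.737 and 0.968 CPM in WT and 1.28, 3.33, 0.636 and 0.795 CPM in Mtm1-/y. Only the diaphragm groups did not overlap. The shared log2 fold change was 1.05 (SE 0.22, adjusted p = 0.00707), with 1.19, 1.12, 1.05 and 0.77 in the 4 tissues, and the call was kept without each single library and lost without the gastrocnemius (adjusted p = 0.2). The liver value rested on Mtm1-/y library 2, without which it was 0.05, and the heart value was 0.66 without Mtm1-/y library 4.

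Upp1 and Uck2, enzymes of pyrimidine nucleoside breakdown and salvage, rose by 0.86 (SE 0.19, adjusted p = 0.0105) and 0.74 (SE 0.15, adjusted p = 0.0075). Upp1 differed by 1.43, 0.83, 0.52 and 0.71 in the gastrocnemius, diaphragm, heart and liver, and Uck2 by 1.01, 1.45, 0.37 and 0.11, the last of which was -0.0072 without WT liver library 2. Sox4, a transcription factor of progenitor cells, rose by 0.76 (SE 0.15, adjusted p = 0.0044), with 4.27 to 8.89 CPM in WT gastrocnemius and 14.1 to 18.4 CPM in that of Mtm1-/y, and with 7.36 to 12.9 against 14.9 to 20.6 CPM in the diaphragm. It overlaps Gm26735 on the other strand. In the heart the Mtm1-/y libraries of Sox4 lay at 20.3, 49.3, 46.4 and 37.4 CPM around WT levels of 20.7 to 29.1 CPM, and in the liver all 7 libraries were under 3 CPM. Spon2, a secreted matrix protein, rose by 0.81 (SE 0.18, adjusted p = 0.01), with 1.27 in the gastrocnemius, 0.59 in the heart and 0.28 in the liver.

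Other large rises had their largest values in the skeletal muscles. Tnc encodes tenascin C, a matrix glycoprotein of developing and injured tissue, and had the largest rise among genes averaging 1 CPM or more in every tissue, at 1.62 (SE 0.43, adjusted p = 0.0309), with 1.68, 3.96, 0.46 and 0.11 in the 4 tissues (interaction adjusted p = 0.0272). Its Mtm1-/y diaphragm libraries held 223, 13.0 and 66.6 CPM against 3.2, 5.24, 9.71 and 7.8 CPM in WT, while heart levels (3 to 3.85 against 2.43 to 6.82 CPM) and liver levels (1.66 to 2.13 and 0.694 to 4.24 CPM) overlapped. Without Mtm1-/y liver library 3 its liver value was -0.55. Its call was lost without any 1 of 8 libraries (WT gastrocnemius 1, 2 and 4, Mtm1-/y gastrocnemius 3 and each WT diaphragm library), at adjusted p of 0.0519 to 0.0607. Cpne2, a copine that binds membranes with calcium, had 7.04, 5.88, 6.03 and 5.6 CPM in WT and 62.4, 55.7, 33.3 and 58.8 CPM in Mtm1-/y gastrocnemius, and 13 to 16.5 and 13.9 to 16.5 CPM in the liver. Its shared value of 1.13 (SE 0.27, adjusted p = 0.0206) thus joined tissue values of 3.10, 1.25, 0.10 and 0.07 (interaction adjusted p = 4.43e-06). Cryab, a small heat shock protein that guards the sarcomere, rose by 0.76 (SE 0.18, adjusted p = 0.0154), with 457 to 578 CPM in WT gastrocnemius, 981 to 1750 CPM in that of Mtm1-/y, and a heart value of 0.01. Cryab overlaps Hspb2 on the other strand. Igf2bp2, an RNA-binding protein of growth regulation, rose by 0.97 (SE 0.22, adjusted p = 0.0141), with 1.40, 1.84, 0.17 and 0.43 in the 4 tissues. Svep1, an extracellular matrix protein, rose by 0.74 (adjusted p = 0.0291), and its call was lost without any 1 of 5 libraries (WT gastrocnemius 1, 2 and 4 and Mtm1-/y diaphragm 1 and 4, up to 0.0599).

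**Figure D4:**
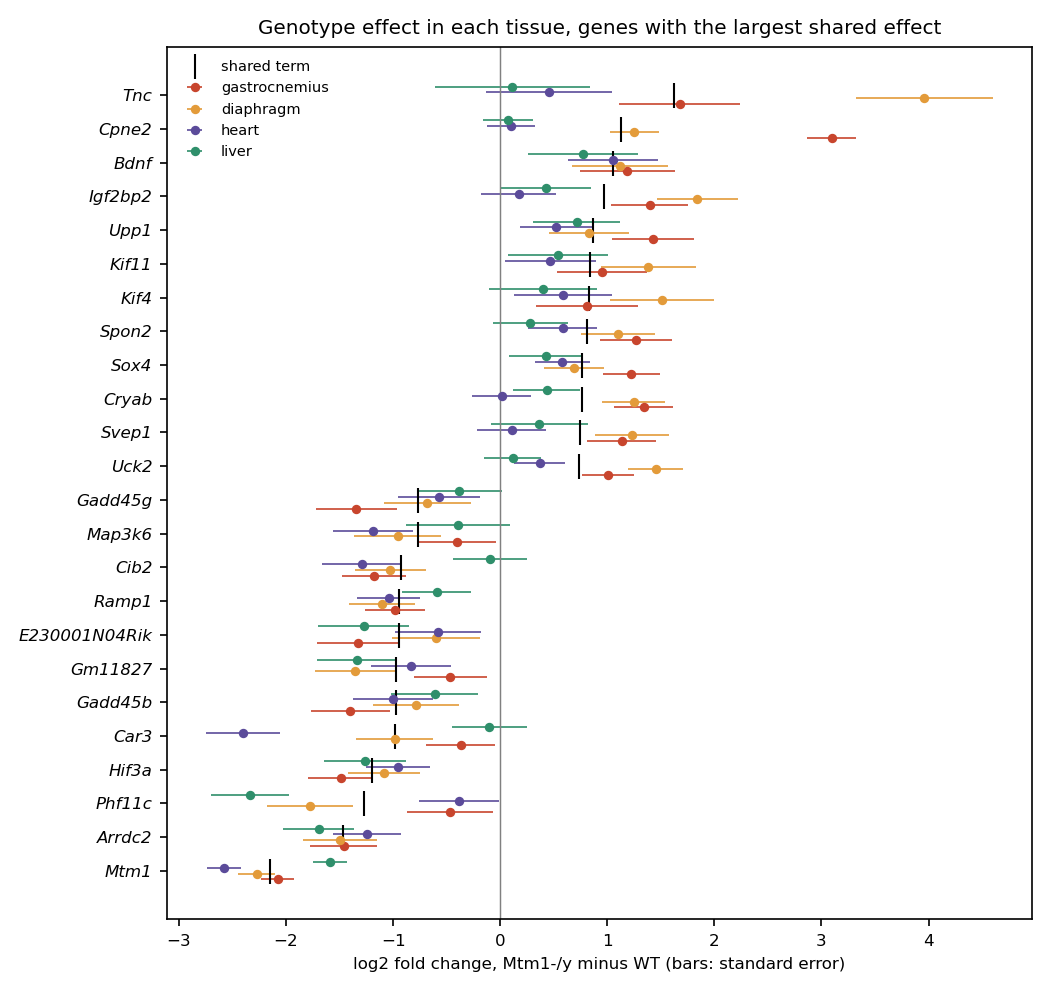
Points are the log2 fold changes (Mtm1-/y minus WT) in each tissue with bars of 1 SE, and the black tick is the shared term, for the 12 largest rises and the 12 largest falls among the 374 genes with at least 1 CPM on average in every tissue. Arrdc2 lies between -1.69 and -1.24 and Hif3a between -1.49 and -0.95, while Cpne2 runs from 0.07 in the liver to 3.10 in the gastrocnemius and Car3 from -2.40 in the heart to -0.10 in the liver.

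Ramp1 and Gadd45b were also among the largest falls. Ramp1 encodes a receptor activity modifying protein, the partner that makes the calcitonin-like receptor a receptor of CGRP. It had 32.2, 34.2, 33.8 and 38.3 CPM in WT and 18.3, 18.3, 17.6 and 15.9 CPM in Mtm1-/y gastrocnemius. Diaphragm libraries had 26.6, 34.8, 35.3 and 30.6 CPM against 13.8, 17.8 and 12.7 CPM. In the heart it had 6.18, 5.05, 5.77 and 13.4 CPM against 4.4, 6.2, 2.01 and 2.16 CPM, and in the liver 4.48, 3.48 and 7.02 CPM against 3.49, 3.29, 3.69 and 2.73 CPM. The skeletal muscles did not overlap, while the heart and the liver did. Its shared log2 fold change was -0.95 (SE 0.15, adjusted p = 0.000507), with -0.98, -1.11, -1.04 and -0.59 in the 4 tissues, and its adjusted p without the gastrocnemius was 0.111. The heart value was -0.62 without WT library 4 and the liver value -0.28 without WT library 3.

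Gadd45b and Gadd45g belong to the growth arrest and DNA damage-inducible family. Gadd45b had 20.9, 16.1, 23.6 and 22.5 CPM in WT and 7.14, 4.6, 5.91 and 13.8 CPM in Mtm1-/y gastrocnemius. Diaphragm libraries had 7.35, 5.43, 10.7 and 7.85 CPM against 5.14, 5.11 and 3.37 CPM. It had 7.04, 6.17, 3.93 and 8.27 CPM in WT heart and 2.72, 3.81, 2.63 and 3.52 CPM in Mtm1-/y heart. These 3 tissues did not overlap, while the liver did, at 3.09, 3.36 and 11.3 CPM against 4.95, 1.99, 5.26 and 3.18 CPM. Its shared log2 fold change was -0.98 (SE 0.19, adjusted p = 0.00501), and without the gastrocnemius its adjusted p was 0.233. Its liver value of -0.61 turned to 0.26 without WT liver library 3. Gadd45g was at -0.77 (SE 0.20, adjusted p = 0.0291), with 97.7 to 132 CPM in WT and 14.4 to 66.8 CPM in Mtm1-/y gastrocnemius, and lost its call without any 1 of 6 libraries (WT gastrocnemius 3 and 4, Mtm1-/y gastrocnemius 1 and 2, Mtm1-/y diaphragm 1 and 4, up to 0.0553). In the list of 18 Gadd45 and p53 target genes, 2 rose and 2 fell, against 2.07% and 1.77% of all genes tested. The rises were Eda2r, a receptor of the TNF family (1.76, adjusted p = 0.0037, with 3.45, 2.17, 0.19 and 0.05 in the 4 tissues), and Tnfrsf10b, a death receptor (0.42, adjusted p = 0.0107, with 0.46, 0.34, 0.29 and 0.66).

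Car3 and Cib2 fell unevenly. Car3 encodes carbonic anhydrase 3, abundant in slow muscle, fat and liver. In the heart it had 102, 29.5, 46.2 and 120 CPM in WT and 16.9, 15.9, 7.75 and 15.6 CPM in Mtm1-/y, without overlap, and it had 1460 to 2520 against 663 to 1440 CPM in the diaphragm. The gastrocnemius (3040 to 4340 and 2310 to 3150 CPM) and the liver (3420 to 3980 and 2630 to 4030 CPM) overlapped. Its shared value was -0.98 (SE 0.25, adjusted p = 0.0257), with -0.37, -0.99, -2.40 and -0.10 in the tissues (interaction adjusted p = 0.0142). The call was lost without the 4 diaphragm libraries highest in albumin, where the value was -0.95, as were the calls of Tnc, Cpne2 and other named genes. Car3 is also a white adipocyte marker. The summed level of the other 20 adipocyte markers was 4580 to 7830 CPM in WT and 2980 to 4530 CPM in Mtm1-/y diaphragm and 5790 to 7160 against 4470 to 5130 CPM in the liver, without overlap, and overlapped in the gastrocnemius (1380 to 1930 against 1360 to 1960 CPM) and in the heart (3520 to 5430 against 4830 to 5820 CPM). A sum follows the most abundant markers. The median log2 fold change of all 21 markers tested, Car3 among them, was 1.04, -0.82, -2.19 and 0.48 in gastrocnemius, diaphragm, heart and liver. Only 9 of them were measured in every tissue. The part of these markers in the fall of Car3 was not tested. Cib2, a calcium- and integrin-binding protein, had 155 to 190 CPM in WT and 67.3 to 81.1 CPM in Mtm1-/y gastrocnemius and a shared log2 fold change of -0.92 (SE 0.18, adjusted p = 0.00501), with -1.18, -1.03, -1.29 and -0.09 in the tissues. The heart value was -0.74 without WT library 4, and the liver value turned to 0.11 without WT library 3. The remaining large falls were the long non-coding RNAs Gm11827 (-0.97, adjusted p = 0.0048) and E230001N04Rik (-0.95, adjusted p = 0.00939).

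Of the pathway that Mtm1 belongs to, little else was shared. Among 14 myotubularin family genes tested, 0 rose and 3 fell, namely Mtm1, Mtmr10 (-0.29, SE 0.07, adjusted p = 0.0264) and Mtmr14 (-0.20, SE 0.06, adjusted p = 0.0431). Over all genes tested 2.07% rose and 1.77% fell. Mtmr10 had 32.3 to 42.4 CPM in WT and 20.1 to 28.6 CPM in Mtm1-/y gastrocnemius and 24.8 to 32.7 against 17.7 to 24.4 CPM in the diaphragm, without overlap. Its groups overlapped in the heart and liver. Mtmr10 lost its call with no filter (adjusted p = 0.0663), without the gastrocnemius (0.369) and without the diaphragm (0.158). Mtmr14 lost its call without any 1 of 18 libraries. Of 18 genes for kinases and effectors of the lipid that myotubularin acts on, 1 was called, against 3.84% of all genes tested. It was Vac14, a scaffold of the PIKfyve complex (0.30, adjusted p = 0.0253), with a liver value of -0.03. Dnm2, the dynamin that is mutated in another centronuclear myopathy, had 58.1 to 67.8 CPM in WT and 62.3 to 74.8 CPM in Mtm1-/y gastrocnemius, and its shared log2 fold change of 0.05 (SE 0.04) did not pass the test (adjusted p = 0.497). Of 11 dynamin, amphiphysin and other myopathy genes, 0 were called by edgeR and by limma voom, 1 by DESeq2, and 2 had an unadjusted p under 0.05 in edgeR. Among 32 lysosomal genes 2 rose, against 2.07% of all genes tested. They were Atp6v1a (0.31, adjusted p = 0.00707) and Gusb (0.21, adjusted p = 0.0489), a subunit of the proton pump and a glucuronidase. Gusb lost its call without any 1 of 21 libraries (up to 0.0953), with the replicate number as a block (0.064) and with no filter (0.066). Of the 32, 7 were higher in all 4 tissues (21.9%, against 9.53% of measured genes) and 0 were lower.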

How the data were processed

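RNA-seq libraries from 4 tissues of Mtm1-/y and WT mice were re-analysed from 1 table of read counts deposited by the authors. They extracted RNA with TRI Reagent, prepared TruSeq Stranded mRNA libraries and sequenced single reads on an Illumina HiSeq. Per the labels and methods, bcl2fastq 2.17.1.14, cutadapt 1.10, STAR 2.5.3a on mm10 and HTSeq 0.6.1p1 made the counts, raw and not normalized. The strand setting of the counting is not given in the sources used here, so overlapping genes on opposite strands may share reads. All 30 library columns were used (0 left out).

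The re-analysis used R 4.3.3. Genes were filtered by filterByExpr (count minimum 10 over the 8 groups of tissue and genotype), scaled by TMM and tested by the quasi-likelihood method of edgeR 4.0.16 with Benjamini-Hochberg adjustment, in a model of tissue plus 1 genotype term, and called at an adjusted p under 0.05. Tissue values came from 1 fit of the 8 groups. A gene was measured in a tissue if it passed the filter there. All printed adjusted p-values are from edgeR unless another tool is named. Gene positions are from GENCODE M21 (mm10), and promoters from RefSeq on GRCm38.p6. The scripts were tested on simulated data.

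The genes and the 46 gene lists were chosen with earlier results of these data known. Named genes are Mtm1, Arrdc2 and Dnm2, the up to 12 largest rises and falls among called genes of 1 sign with a mean of at least 1 CPM in each tissue, up to 3 called members with the smallest p of each list, with genes within 1 megabase of Mtm1 given as counts. Alternatives were other scaling and filters, DESeq2 1.42.0, limma 3.58.1 (voom with sample weights, or with genotype and number as a random block), the replicate number as a block, an equal-weight mean of the 4 tissues, marker scores as covariates, a fold threshold, and leaving out each tissue or library. The values of 1 called gene are not reported here.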

Additional observations from a re-analysis of the deposited data

Results flagged for a closer look

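Levels of the genes named for their size were searched for a library standing apart in each group of 4 (Dixon's test). Of 150 groups, 12 held one (8%), where chance gives about 1 in 20. In the gastrocnemius these were Mtm1 in WT library 3 (22.3 CPM, others 20.8 to 20.9), Tnc in WT library 3 (36 CPM, others 9.85 to 12.2), and Svep1 (63.6 CPM, others 36.9 to 39.4) and Uck2 (29.6 CPM, others 51 to 53.5) in Mtm1-/y library 4. In WT diaphragm they were Bdnf in library 3 (2.43 CPM, others 2 to 2.06) and Gadd45g in library 2 (43.3 CPM, others 76.4 to 80.6). In the heart, Car3 in Mtm1-/y library 3 (7.75 CPM, others 15.6 to 16.9), E230001N04Rik in Mtm1-/y library 1 (0.55 CPM, others 0.934 to 1.01) and Ramp1 in WT library 4 (13.4 CPM, others 5.05 to 6.18) stood apart. Mtm1-/y liver library 2 stood apart for Phf11c (12.4 CPM, others 7.47 to 8.01), Gm11827 (4.49 CPM, others 0.796 to 1.36) and Gadd45g (11.7 CPM, others 45.8 to 48.3). Of these genes, Tnc, Svep1 and Gadd45g lost their call when some single library was left out, and the other 8 kept it without each of the 30 in turn.

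The genotype effect differed between tissues by the interaction test of edgeR for 5 of the 25 genes named for their size: Mtm1 (adjusted p = 0.0384), Tnc (0.0272), Cpne2 (4.43e-06), Phf11c (0.0416) and Car3 (0.0142). In the order gastrocnemius, diaphragm, heart and liver, the log2 fold changes were -2.08, -2.28, -2.58 and -1.59 for Mtm1, 1.68, 3.96, 0.46 and 0.11 for Tnc, 3.10, 1.25, 0.10 and 0.07 for Cpne2, -0.47, -1.77, -0.38 and -2.34 for Phf11c, and -0.37, -0.99, -2.40 and -0.10 for Car3.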

How the results depend on the processing

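Against 711 called genes and 374 of shared sign, no filter on low counts gave 458 and 214, DESeq2 1278 and 658, limma voom with sample weights 1236 and 596, voom with genotype and number as a random block 1192 and 516, marker scores as covariates 1630 and 621, a log2 fold change over 1 165 and 16, and, chosen after seeing the data, leaving out the 4 diaphragm libraries highest in albumin 415 and 242. Without the gastrocnemius they were 10 and 5, without the diaphragm 134 and 59, without the heart 1354 and 804, and without the liver 1197 and 739. The cause was not tested. The share of higher calls was 53.9%, and 67% without a filter and 44% in voom with sample weights. Interactions, 971 in edgeR, were 2496 in DESeq2 and 7, 1967, 214 and 1616 without the gastrocnemius, diaphragm, heart and liver. Leaving out 1 library gave 348 called genes (without WT gastrocnemius 4) to 1010 (without Mtm1-/y heart 2), 184 to 566 of shared sign (the same libraries), and 523 (without WT gastrocnemius 2) to 2184 interactions (without Mtm1-/y diaphragm 2). The called genes or those of shared sign moved by over 1.5 times without WT gastrocnemius 1, 2, 3 or 4, Mtm1-/y gastrocnemius 1 or 2, Mtm1-/y diaphragm 1 or 4, or Mtm1-/y heart 2, and the interactions also without WT gastrocnemius 4 (619) and Mtm1-/y gastrocnemius 1 (543). DESeq2's size factors, TMM within each tissue, measured genes alone, an equal-weight mean and signs from tissues fitted alone stayed within 1.5 times. The replicate number as a block gave 612 called genes, 350 of shared sign and 917 interactions. Pairs of 1 genotype from different tissues correlated above 0.1 for 16 of 42 with the same number (median r 0.0588) and 19 of 126 with other numbers (median r -0.0334). Not every pair passed 0.1, so the numbers were not taken as pairs, although same-numbered libraries may share a mouse. No named gene reversed. Of the 70 named genes called, 39 kept their call without each library in turn. Mtm1, Arrdc2, Hif3a and Setdb2 kept it under every other setting too, the fold threshold aside, which Setdb2 did not reach.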

Other observations

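Among the 374 genes, 10 did not overlap between genotypes in both the heart and the liver. Besides Mtm1, Arrdc2, Hif3a and Setdb2 they included Tinagl1, E230001N04Rik, Tpst2 and Elob, lower in Mtm1-/y, and Lin54, higher, and they are described after their values were seen. Lin54, a DNA-binding subunit of the MuvB complex that times cell cycle genes, had 8 to 9.15 CPM in WT heart and 9.96 to 10.7 CPM in Mtm1-/y heart, and 10.1 to 11.7 against 12.1 to 13.7 CPM in the liver. Its groups overlapped in both skeletal muscles. Tinagl1, a secreted matricellular protein, had 38.7 to 55.3 against 28.9 to 38.5 CPM in the heart and 21.2 to 25.2 against 11.8 to 21.1 CPM in the liver, so the closest libraries lay side by side. Tpst2, a tyrosine sulfotransferase of the Golgi, had 23 to 24.3 against 19.4 to 20.8 CPM in the heart and 34.7 to 46.1 against 19.7 to 33.5 CPM in the liver. Elob, which encodes elongin B, had 31.9 to 34.4 against 22.3 to 31.5 CPM in the heart and 39.3 to 42.8 against 25.7 to 35.6 CPM in the liver, and it overlaps Srrm2 on the other strand.

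Further genes, also chosen after their values were seen, had other patterns. Baz1a, a chromatin remodelling subunit, rose by 0.63 (SE 0.10, adjusted p = 0.00096), with 0.91, 0.61, 0.46 and 0.55 in the gastrocnemius, diaphragm, heart and liver, and overlapped in the heart only. Xdh, which encodes xanthine dehydrogenase, had a shared log2 fold change of -0.64 (SE 0.12, adjusted p = 0.00316). Its levels were 92.8 to 105 against 28.3 to 51.1 CPM in the gastrocnemius, 105 to 118 against 48.1 to 73.9 CPM in the diaphragm and 108 to 128 against 76 to 107 CPM in the heart, and they overlapped in the liver. Slc2a3, a glucose transporter gene, had -1.03 (SE 0.23, adjusted p = 0.0127), with 9.96 to 16.4 against 1.41 to 3.05 CPM in the gastrocnemius and under 1 CPM in all liver libraries. Bcl2l1, an anti-apoptotic gene, had -0.56 (SE 0.10, adjusted p = 0.00212), with -0.58, -0.48, -0.49 and -0.71 in the 4 tissues.

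Of 16 NF-kB target genes, 5 rose (Il1b, Relb, Nfkb2, Ccl2 and Birc3) and 1 fell (Nfkbia), against 2.07% and 1.77% of all genes tested. Relb and Birc3 were higher in all 4 tissues, with heart values of 0.05 and 0.07, while Nfkb2 had 2.00 and 0.90 in the gastrocnemius and diaphragm and -0.01 and -0.02 in the heart and liver. Il1b and Ccl2 were not measured in every tissue, and Birc3 lost its call without any 1 of 22 libraries (up to 0.0986) and Ccl2 without any 1 of 6 (up to 0.16). Of 16 cytosolic heat shock genes 3 rose, against 2.07% of all genes tested. Cryab was higher in all 4 tissues, Hspb1 had 1.44, 1.73, -0.29 and 0.82, and Hspb8 0.99, 0.88, 0.07 and -0.07. Hspb1 lost its call without any 1 of 7 libraries (up to 0.0665) and Hspb8 without any 1 of 9 (up to 0.0649), all from the skeletal muscles, while Cryab kept it without each of the 30. Myog, a myogenic transcription factor, had a shared log2 fold change of 2.03 with 16.2 to 28.7 against 37.8 to 116 CPM in the gastrocnemius, and its heart libraries held at most 0.0268 CPM.

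The 374 genes had a median level of 25.3 CPM for those higher and 25.7 CPM for those lower, against 20.4 CPM over all genes measured in every tissue. Of them, 137 were called both without each library in turn and under the 11 other settings that kept all tissues, 80 higher and 57 lower. The fold threshold is not among the 11. At the threshold, the last genes inside were Tnnt2 (adjusted p = 0.0495) and Ankrd24 (0.0499), and the first outside were Atxn7l3 and Higd2a (both 0.0501).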
